A study of Mus musculus with 38 samples.

Results

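The cytosolic ribosomal protein genes encode the protein part of the ribosome, and 81 of the 24028 genes in the count table were taken as members: 31 of the small subunit and 50 of the large subunit. They were chosen by mouse symbol alone (Rps or Rpl, a number and at most 1 of the letters a, x or l, together with Rplp0, Rplp1, Rplp2 and Rpsa), and only protein-coding genes were kept. 1 further gene with such a symbol, Rps4l, is a transcribed pseudogene in RefSeq and was left out. 79 members had enough counts to be tested, and the 2 that did not, Rpl10l and Rpl3l, are paralogues of Rpl10 and Rpl3.

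Cells need the ribosomal proteins in nearly equal amounts, and their mRNAs are among the most abundant in any growing cell. Most of these mRNAs start with a C followed by a run of pyrimidines, the TOP element (terminal oligopyrimidine), through which mTORC1 signalling controls how well they are translated. Resting T cells keep a small protein synthesis machinery, and activation through the T cell receptor and CD28 enlarges it. RNA-seq counts mRNA, and neither translation nor ribosome number was measured.

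The study compared mouse CD4+ T cells of 5 genotypes, each before and after activation. The wt group is wildtype, and CD28-/- mice carry a knockout of the costimulatory receptor CD28. T1792delta/delta mice carry a floxed miR-17~92 cluster that CD4cre removes, and T1792tg/tg mice carry extra miR-17~92 under the CAG promoter at Rosa26, kept off by a floxed STOP cassette until CD4cre removes it. The rescue mice combine CD28-/- with CD4cre and the same transgene. CD4cre acts from the double-positive thymocyte stage and so is not limited to the CD4 lineage, and no group carries CD4cre alone. Naive cells were isolated with a kit from the lymph nodes and the spleen of 1 mouse, pooled, for each library. Males and females were used, and the sources used here do not give ages. The activated cells of every genotype, CD28-/- included, were kept for 24 h with plate-bound antibodies, 0.5 µg/ml against CD3 and 0.2 µg/ml against CD28, and with 50 U/ml IL2. There were 4 libraries for each genotype and state, and 3 for each state of rescue, 38 in all.

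The libraries held 19427291 to 28020721 counts, and levels are given as CPM, counts per 1000000 counts of the library after TMM scaling. The Cd28 gene was read at 737 ± 135 CPM in naive CD28-/- cells (SD, n = 4) and at 825 ± 86.8 CPM in naive wt cells, but the table sums reads over the whole gene, so this value does not check the knockout label. The miR-17~92 host transcript Mir17hg was at 51.6 ± 7.25 CPM in naive wt cells, 54.4 ± 7.88 in naive T1792delta/delta cells and 96.6 ± 10.1 in naive T1792tg/tg cells, and it likewise includes sequence outside the cluster. CD4 T cell marker genes were read in every group, with 0 of the 11 measured at 0. Their sum was lower after culture as well, at 8431 to 11038 CPM in naive and 2819 to 4824 CPM in activated libraries. Regulatory T cell markers (6 genes) summed to 188 to 204 CPM in naive CD28-/-, 289 to 325 CPM in naive wt and 324 to 464 CPM in naive T1792tg/tg libraries. Markers of B cells (10 genes, 359 to 1486 summed CPM in naive libraries), myeloid cells (10 genes, 114 to 331) and NK or CD8 T cells (8 genes, 90.8 to 168) were also present in naive libraries. All 3 sums were lower after culture, at 82.7 to 269, 34.5 to 46.6 and 24.1 to 54.2 CPM, with 1 myeloid gene at 0 in rescue cells. In bulk RNA, fewer cells of a type and less RNA per cell cannot be told apart, and the part of other cells in the results below was not tested. The sex of the mice is not labelled: in each state, libraries with more Xist than Y-linked counts were 4 of 4 in CD28-/-, 3 of 3 in rescue, 3 of 4 in wt, 2 of 4 in T1792delta/delta and 1 of 4 in T1792tg/tg.

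The sequences around the transcription starts are shown for the members whose mRNA changed most and for Rps6, a TOP gene and the best known substrate of the S6 kinases. Each line gives 45 bases before the start and 20 from it, on the gene's strand, from the RefSeq annotation of GRCm38.p6. The first 5 transcribed bases are in capitals.
Rps27, small subunit, chr3:90213629-90213693, minus strand: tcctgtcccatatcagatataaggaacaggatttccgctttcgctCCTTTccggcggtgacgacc
Rps27l, its paralogue, chr9:66946041-66946105, plus strand: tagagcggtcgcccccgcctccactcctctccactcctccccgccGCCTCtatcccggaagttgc
Rps15a, small subunit, chr7:118116128-118116192, minus strand: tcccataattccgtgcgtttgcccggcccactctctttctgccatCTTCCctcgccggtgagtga
Rps6, small subunit, chr4:86857348-86857412, minus strand: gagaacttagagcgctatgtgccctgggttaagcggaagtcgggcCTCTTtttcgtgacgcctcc
Rps2, small subunit, chr17:24720018-24720082, plus strand: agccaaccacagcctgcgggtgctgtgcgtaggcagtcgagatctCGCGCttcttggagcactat
The annotated starts of Rps27, Rps15a and Rps6 open with C and 4 pyrimidines, while those of Rps27l and Rps2 do not. RefSeq promoters matched 61 members, with 73 starts between them. A start of C followed by 4 pyrimidines was found in 14 of these (19.2%), against 2.51% of all 32851 promoters in the table, and an annotated start that is off by 1 base would be missed by this search. The motif CCGGAAG, the core of an ETS factor site, was found on either strand within 250 bases before to 50 bases after the start in 35.6% of member promoters and 8.86% of all promoters. AAGATGGC, the core of the YY1 motif, was in 9.59% against 2.75%, CACGTG (the E-box bound by Myc) in 11.0% against 7.15%, and TATAAA in 9.59% against 13.6%.

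Reads of ribosomal protein genes are hard to place, because the genome holds many processed copies of them. Of the 80 members with a transcript in the GENCODE set used here, 76 had at least 1 window of 76 bases, the read length, that also occurs in a transcript of another gene, and 32 had over 50% of their windows shared. Rps27 was shared in 98.5% of windows, Rps12 in 89.5%, Rps2 in 70.9% and Rps7 in 68.7%, whereas Rps27l was shared in 11.6% and Rpl39l in 0. Rps15a was shared in 4.13% of windows, but over a transcript of 5130 bases, and the share depends on the transcript used. The sources used here do not say how reads with several places were counted, and levels of the highly shared members are therefore uncertain. The 32 highly shared members had a median level of 462 CPM per kb in naive wt cells, and the 46 tested members with less sharing had 786 CPM per kb. The 6 rows named as ribosomal protein pseudogenes held 4.08 to 4.55 counts per 100 member counts in the group means. Their share was higher at 24 h than in naive cells in each genotype (4.24 and 4.52 for wt). Summed over all libraries, Rpl14-ps1 held 1097872 counts against 522238 of Rpl14, and Rplp2-ps1 held 771466 against 571194 of Rplp2. Rps15a-ps6 and Rps15a-ps4 held 240899 and 113521 against 744412 of Rps15a, and Rps19-ps3 held 184696 against 678027 of Rps19, so levels and changes of these 4 members are uncertain as well.

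In naive wt cells the members together took 6.27 ± 0.82% of all counts (SD, n = 4). The most counted 10 members held 39.4% of them, led by Rplp0, the base of the ribosomal P stalk that recruits translation factors, with 5.59 ± 0.26% of member counts, and Rpl4 with 5.58 ± 0.21%. Per length, naive wt levels were highest for Rplp1, another P stalk protein, at 4926 CPM per kb, followed by Rps15 at 3625 and Rpl32 at 3223. The lowest of the tested members were Rpl39l at 0.37 CPM per kb, Rpl28 at 5.29 and Rps23 at 9.32. Rpl39l is a paralogue known from testis, while Rpl28 and Rps23 are core ribosomal proteins. The middle 50% of tested members lay between 234 and 1290 CPM per kb, a 5.53-fold range.

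**Figure D1:**
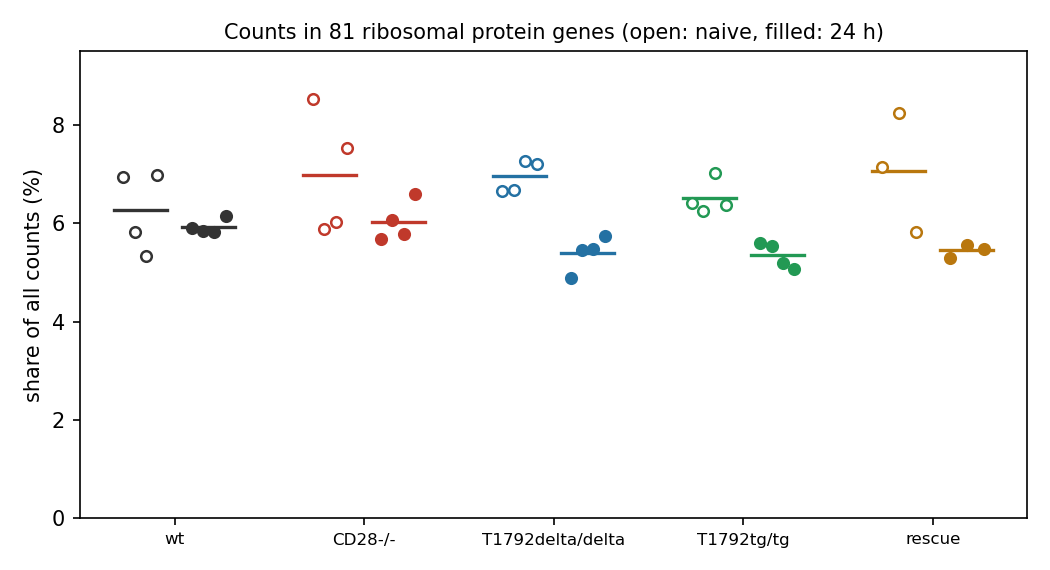
Share of all counts (%) in the 81 ribosomal protein genes, by genotype. Each point is 1 library, open for naive and filled for 24 h, and the short lines are group means. Naive libraries of wt, CD28-/- and rescue spread most, from 5.34 to 8.53%, and the 24 h libraries lie between 4.88 and 6.60%.

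In wt, CD28-/- and rescue, the naive libraries differed more among themselves than the activated ones. The summed share was 5.88 to 8.53% in the 4 naive CD28-/- libraries and 5.83 to 8.24% in the 3 naive rescue libraries, with means of 6.99 ± 1.27% and 7.07 ± 1.21%. It was 6.96 ± 0.33% in naive T1792delta/delta and 6.51 ± 0.35% in naive T1792tg/tg cells. At 24 h it was 5.93 ± 0.15% in wt, 6.03 ± 0.41% in CD28-/-, 5.39 ± 0.37% in T1792delta/delta, 5.35 ± 0.26% in T1792tg/tg and 5.45 ± 0.14% in rescue cells. The members moved together between naive libraries: of the 79 tested, 66 were highest in CD28-/- naive replicate 1 within its group, 69 were highest in rescue naive replicate 2, and 77 were lowest in wt naive replicate 3. The median coefficient of variation of a member was 16.0% in naive wt, 17.9% in naive CD28-/- and 17.4% in naive rescue cells, against 3.84%, 8.82% and 4.62% at 24 h. In T1792delta/delta it was 4.90% in naive cells and 9.04% at 24 h. Counts of called members are therefore also given without CD28-/- naive replicate 1 and rescue naive replicate 2, the libraries with the highest shares, where that moves them by over 1.5 times or ends a call.

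The first question was what activation did to these mRNAs. The scaling sets each mRNA against the rest of its library, so rises and falls here are relative to other mRNAs. RNA per cell was not measured here, so a lower CPM does not show fewer copies per cell. In wt cells 15 of the 79 tested members rose and 31 fell, against 41.3% of all 13650 tested genes higher and 43.9% lower. In all, 58.2% of the members and 85.2% of all tested genes passed the test (edgeR quasi-likelihood test, adjusted p below 0.05, adjusted over all tested genes). Their changes were also small. The SD of the log2 fold changes over members was 0.61 in wt, against 2.12 over all tested genes, and the median was -0.07 against -0.06. In CD28-/- cells 7 rose and 44 fell, with a median of -0.28 (80.9% of all tested genes called, 39.7% higher and 41.2% lower). In T1792delta/delta cells 7 rose and 53 fell, with a median of -0.40 (85.1% called, 41.4% higher and 43.7% lower). In T1792tg/tg cells 11 rose and 33 fell, with a median of -0.19 (85.1% called, 41% higher and 44.1% lower). In rescue cells 4 rose and 51 fell, with a median of -0.37 (79.7% called, 38.8% higher and 40.8% lower). In each genotype a smaller share of the members than of all tested genes rose. With library sizes set by total counts the CD28-/- split was 10 higher and 31 lower and its median was -0.15, while the median of all tested genes there moved from -0.04 to 0.09. Without CD28-/- naive replicate 1 and rescue naive replicate 2, an alternative chosen after seeing the data, 43 members were called in CD28-/- and 45 in rescue cells.

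The 5 responses share no library, and 29 of the 79 tested members (36.7%) fell in all 5, against 32.4% of all tested genes, a share near that background. The members that rose in all 5 were 3 of 79 (against 31.6% of all tested genes): Rps27l, Rps2 and Rps12. A further 9 members (11.4%, against 2.60%) were called in none, among them Rpl7, Rpl4, Rpl6 and Rpsa, a small subunit protein also known as the laminin receptor. 1 member was called in opposite directions: Rpl22, an RNA-binding large subunit protein with a role in T cell development, was at 0.27 in wt and -0.26 in rescue cells. Both calls were lost in some alternatives, the wt call with an adjusted p of 0.058 in DESeq2 and the rescue call with 0.30 without the 2 libraries of highest share. The small subunit members had lower medians than the large subunit members in each genotype: -0.26 against -0.04 in wt, -0.44 against -0.24 in CD28-/-, -0.48 against -0.35 in T1792delta/delta, -0.44 against -0.15 in T1792tg/tg and -0.54 against -0.33 in rescue cells. These are descriptions of the lists, and the difference between the subunits was not tested.

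**Figure D2:**
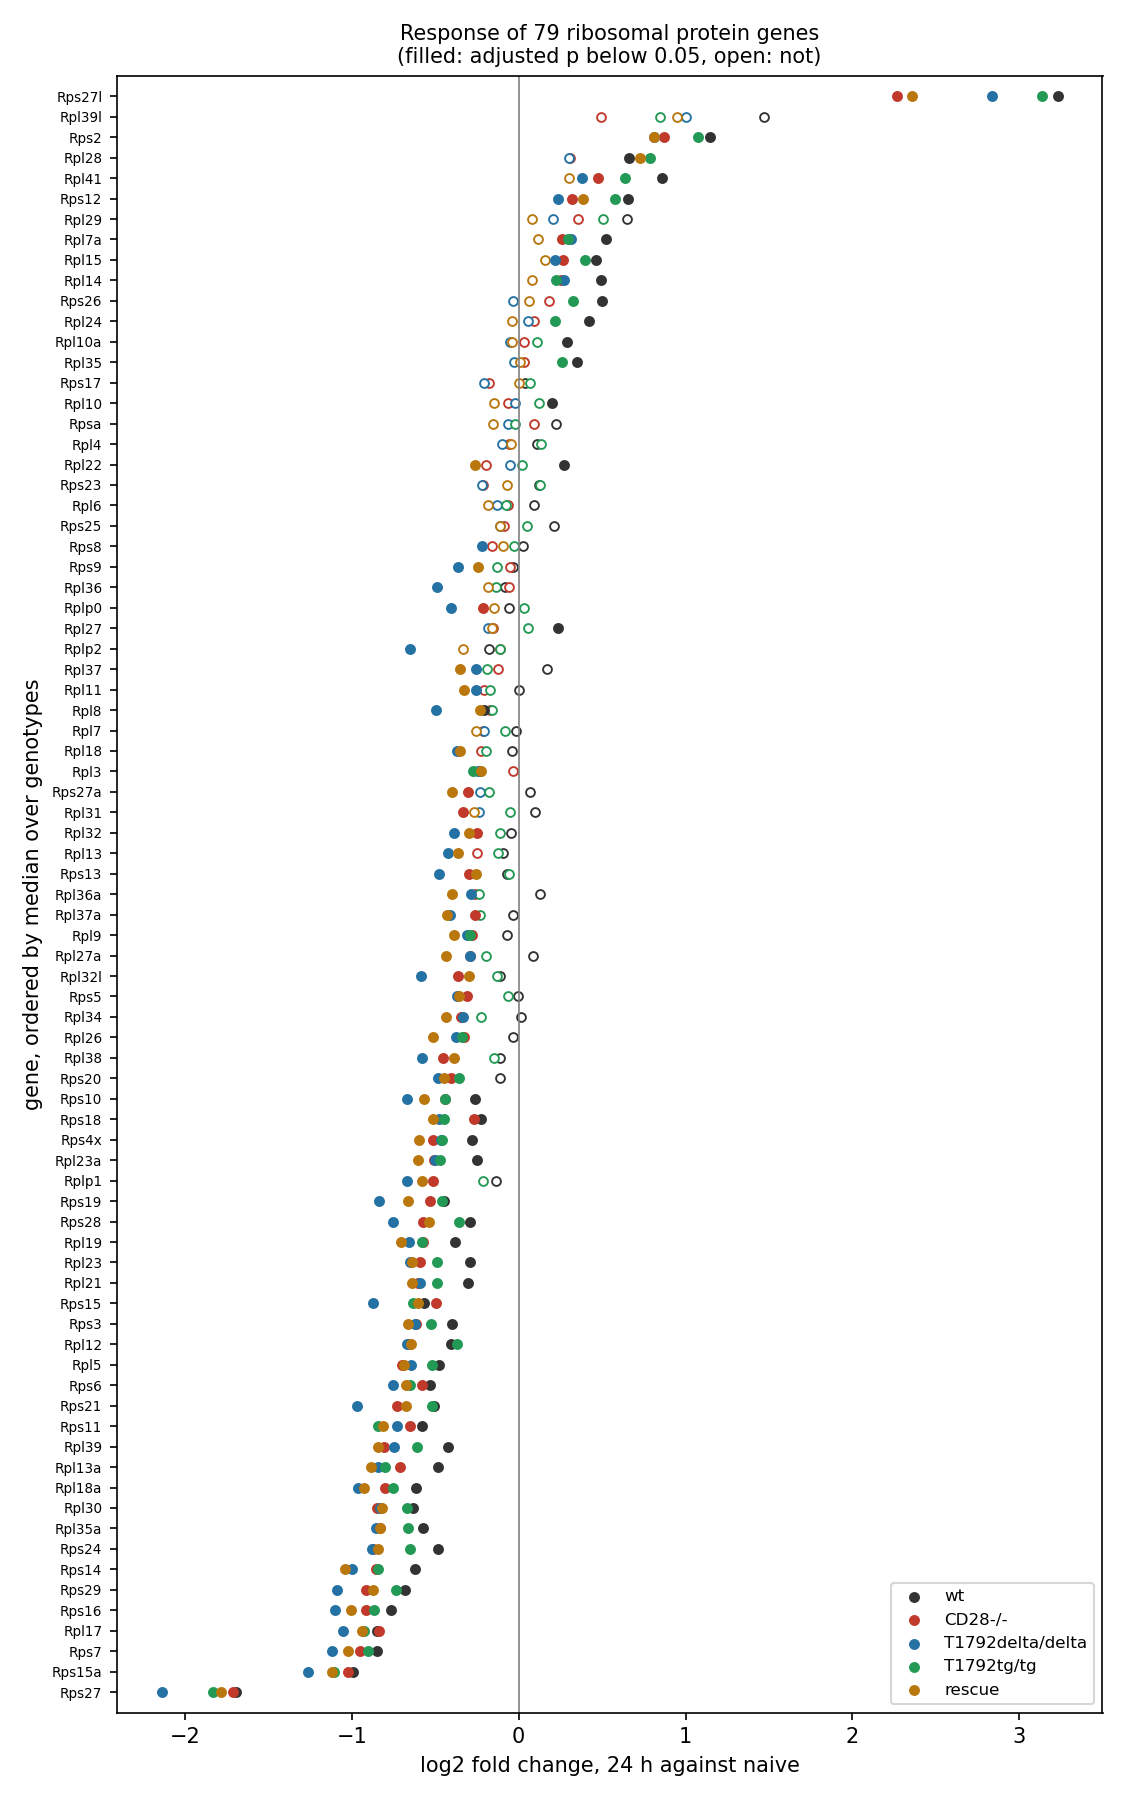
Log2 fold change from naive to 24 h of the 79 tested ribosomal protein genes, 1 line a gene, ordered by the median over genotypes. Colours are genotypes, filled points passed the adjusted p of 0.05 and open points did not. Rps27 lies between -2.14 and -1.70 at the bottom, Rps27l between 2.27 and 3.23 at the top, and most others within 1 of 0.

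Rps27, a zinc finger protein of the small subunit, fell most. Its 4 naive wt libraries read 669, 518, 434 and 733 CPM and the 4 at 24 h read 178, 187, 173 and 189 CPM. Every activated library was below every naive one, also in the other genotypes, where naive levels were 480 to 809 CPM and 24 h levels 122 to 242 CPM. The log2 fold change was -1.70 ± 0.14 in wt (SE, edgeR adjusted p = 9.5e-14), -1.71 in CD28-/-, -2.14 in T1792delta/delta, -1.83 in T1792tg/tg and -1.79 in rescue cells.

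Its paralogue Rps27l, known as a target gene of p53, rose most. The naive wt libraries read 17.1, 16.2, 16.0 and 18.7 CPM and the 24 h libraries 157, 159, 156 and 165 CPM, so the groups were far apart. In CD28-/- cells the libraries read 26.9, 20.4, 18.7 and 21.9 CPM naive and 95.2, 108, 101 and 118 CPM at 24 h, below all 4 activated wt libraries. The log2 fold change was 3.23 ± 0.14 in wt (edgeR adjusted p = 2.2e-21), 3.13 in T1792tg/tg, 2.83 in T1792delta/delta, 2.36 in rescue and 2.27 in CD28-/- cells. Per length, naive wt cells held 3.69 ± 0.67 Rps27l mRNAs per 100 Rps27 mRNAs (SD, n = 4), and activated wt cells held 109 ± 2.84. These widths sum all exons, 464 bases for Rps27l and 575 for Rps27. With the lengths of single transcripts, 499 and 345 bases, the wt values were 2.06 ± 0.38 and 60.6 ± 1.59, so which of the 2 mRNAs was the more abundant after activation depends on the length used. By the widths the activated value was 62.3 ± 1.63 in CD28-/-, 89.8 ± 3.70 in rescue (n = 3), 105 ± 9.26 in T1792delta/delta and 123 ± 7.55 in T1792tg/tg cells. The CD28-/- libraries lay at 60.6 to 64.5, below the rescue libraries at 86.5 to 93.8, and these below the wt libraries at 105 to 112. This ratio rests on Rps27 counts, of which the shared windows make the absolute value uncertain, and it was not tested.

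**Figure D3:**
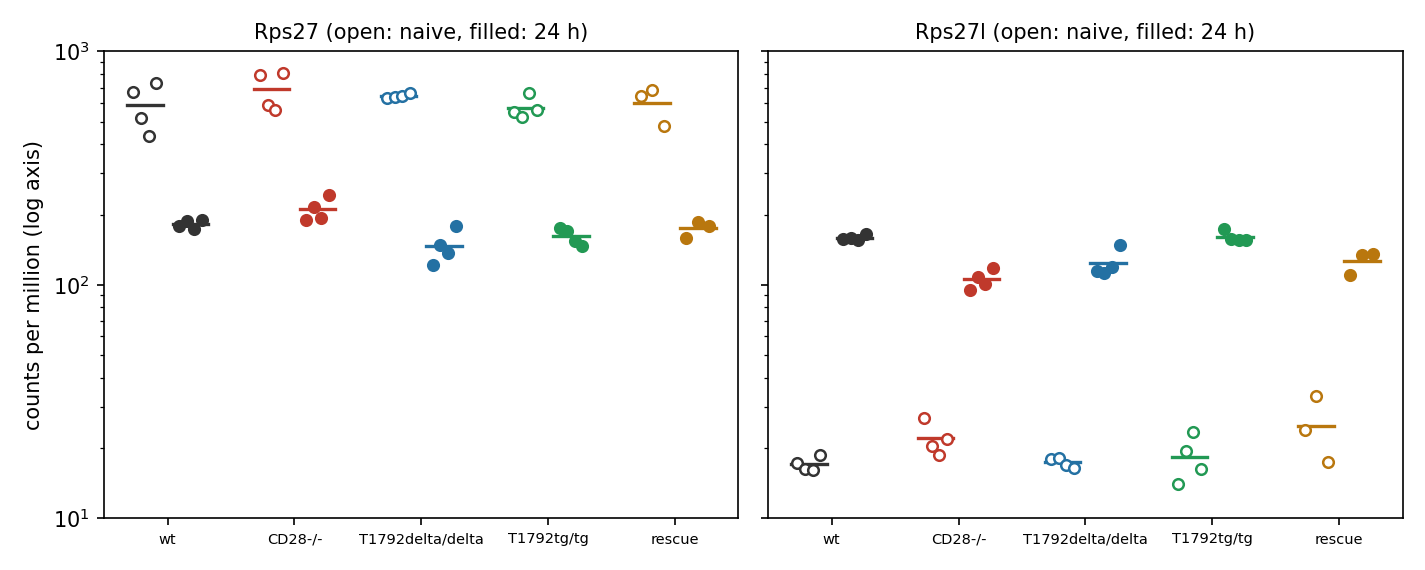
Rps27 (left) and Rps27l (right) in CPM on a log axis, by genotype. Each point is 1 library, open for naive and filled for 24 h, with short lines at the group means. Rps27 falls from 434 to 809 CPM in naive libraries to 122 to 242 CPM, and Rps27l rises from 33.2 CPM or less to 95.2 CPM or more.

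Rps15a, a small subunit protein with a TOP start, fell from 1146, 990, 892 and 1222 CPM in naive wt libraries to 541, 525, 518 and 550 CPM, a log2 fold change of -0.99 ± 0.10 (edgeR adjusted p = 5.4e-11). The naive and activated libraries did not overlap in any genotype, and the change was between -1.26 and -0.99. The 2 Rps15a pseudogenes fell by 0.98 and 0.99 in wt cells, and reads of the 3 genes may not be told apart. Rps7, whose loss is a cause of Diamond-Blackfan anaemia as is that of other members, fell from 569, 470, 418 and 575 CPM to 294, 275, 266 and 291 CPM in wt cells (log2 fold change -0.85 ± 0.11, edgeR adjusted p = 7.7e-09). Its changes in the 5 genotypes lay between -1.12 and -0.85, again with no overlap between naive and activated libraries. Rpl17 (-1.05 to -0.84), Rps16 (-1.10 to -0.76), Rps29 (-1.09 to -0.68) and Rps14 (-1.04 to -0.62), the last lost in the 5q- syndrome, fell in all 5 genotypes as well. Rps6 fell by between 0.53 and 0.75 on the log2 scale. Rps3, which like Rps2 sits at the mRNA entry, fell by between 0.40 and 0.66. Rpl5, which with Rpl11 and the 5S RNA can bind and inhibit Mdm2, fell by between 0.48 and 0.70. Rpl11 passed the test in 2 genotypes only, T1792delta/delta (-0.25) and rescue (-0.33), and had a value of 0.00 in wt. Its T1792delta/delta call was lost with total counts (adjusted p = 0.11) and without T1792delta/delta 24h replicate 1 (adjusted p = 0.093). Its rescue call was lost without rescue naive replicate 2 (-0.20, adjusted p = 0.14) and without the 2 libraries of highest share (-0.20, adjusted p = 0.11).

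Rps2, a protein at the small subunit's mRNA entry, rose in all 5. The naive wt libraries read 309, 226, 203 and 260 CPM and the activated ones 527, 558, 560 and 561 CPM, a log2 fold change of 1.14 ± 0.10 (edgeR adjusted p = 6.7e-13). The change was 1.07 in T1792tg/tg, 0.87 in CD28-/- and 0.81 in both T1792delta/delta and rescue cells, and no library overlapped. Rps12 went from between 243 and 281 CPM to between 390 and 442 CPM in wt cells (0.65 ± 0.09, edgeR adjusted p = 1.4e-08) and rose by between 0.23 and 0.65 over the genotypes. Both share most of their windows with transcripts of other genes. Rpl41, which encodes the shortest ribosomal protein, rose in 4 of 5 genotypes, from 604 to 872 CPM in naive to 1313 to 1473 CPM in activated wt libraries (0.86 ± 0.13). Rpl14, Rpl15 and Rpl7a also rose in 4 of 5 genotypes. Rpl14 rose by 0.49 ± 0.09 in wt cells, where its pseudogene with the larger count rose by 0.27 ± 0.09 (edgeR adjusted p = 0.0055). In CD28-/-, T1792delta/delta and T1792tg/tg cells Rpl14 rose by 0.23 to 0.27 while Rpl14-ps1 was at 0.10, 0.13 and 0.10 and did not pass. The CD28-/- call of Rpl15 was lost with RLE size factors (adjusted p = 0.075), DESeq2 (0.070) and a fit of the compared groups only (0.083). It was lost as well without CD28-/- naive replicate 2 (0.086) or 3 (0.078) or 24h replicate 4 (0.050). Rpl28 rose in 3, from 2.35 to 3.20 CPM to 3.69 to 4.53 CPM in wt cells, low levels for a core ribosomal protein.

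Of the 3 P stalk proteins (Rplp0, Rplp1 and Rplp2), 0 passed the test in wt and T1792tg/tg cells, while 2 fell in CD28-/-, 3 in T1792delta/delta and 1 in rescue cells. Of all tested genes, 79.7 to 85.2% were called and 40.8 to 44.1% fell in these responses. The difference between genotypes in the P stalk counts was not tested. Rplp0 was at 2941 to 4473 CPM in naive and 3442 to 3581 CPM in activated wt libraries, which overlap. In T1792delta/delta cells it fell from 4128 to 4513 CPM to 3015 to 3477 CPM (log2 fold change -0.40 ± 0.09, edgeR adjusted p = 1.6e-04), and those libraries did not overlap. The CD28-/- call of Rplp0 was lost with total counts (-0.08, adjusted p = 0.37), with no filter (adjusted p = 0.062), without the 2 libraries of highest share (-0.14, adjusted p = 0.18) and without CD28-/- naive replicate 1 or 4 or 24h replicate 1 or 3 (adjusted p from 0.071 to 0.18). Rplp2 fell by 0.65 ± 0.15 in T1792delta/delta cells, where Rplp2-ps1 fell by 0.40 ± 0.13 (edgeR adjusted p = 0.0049). Of the X-linked members named here, Rps4x fell in all 5 genotypes (-0.60 to -0.28), with the wt call lost without wt naive replicate 1 (-0.23, adjusted p = 0.062) or 4 (-0.19, adjusted p = 0.097). Rpl39, a protein of the exit tunnel, fell by 0.43 to 0.85 on the log2 scale, and Rpl10, which joins the large subunit late in its assembly, rose in wt cells (0.20 ± 0.09, edgeR adjusted p = 0.045). The Rpl10 call was lost with RLE size factors (0.14, adjusted p = 0.16) and when single wt libraries other than naive replicates 1 and 4 were left out, and it did not pass in the other 4 genotypes (-0.15 to 0.12). Rpl3, next to the peptidyl transferase centre, fell in 4 of 5 genotypes by 0.23 to 0.27 and was at -0.03 in CD28-/- cells. Its rescue call was lost with total counts (adjusted p = 0.050), in a fit of the compared groups only (0.056), without rescue 24h replicate 3 (0.073), without rescue naive replicate 2 (-0.11, adjusted p = 0.25) and without the 2 libraries of highest share (-0.11, adjusted p = 0.22).

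Sequence features did not divide the responses cleanly. The 14 members with a TOP-like start had median changes of -0.20 in wt, -0.40 in CD28-/-, -0.62 in T1792delta/delta, -0.30 in T1792tg/tg and -0.45 in rescue cells. The 45 tested members with a RefSeq start of another kind had 0.00, -0.25, -0.31, -0.18 and -0.35, and both sets ranged from falling to rising members in each genotype. Members with over 50% of windows shared had a median of -0.01 in wt, against -0.13 for the rest. In T1792delta/delta cells the values were -0.27 and -0.54.

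The genes that build ribosomes responded in another way than the ribosomal proteins themselves. These lists were drawn up by function, with earlier results of these data known. Rrs1 is in both the biogenesis list and that of chaperones and importers. Which listed translation genes have a TOP start was taken as given, and their starts were not checked. All 20 ribosome biogenesis genes rose in each of the 5 genotypes, with medians of 1.69 in CD28-/- to 2.53 in T1792tg/tg cells: in wt cells Nop16, a nucleolar assembly factor, rose by 3.24 ± 0.08 and Dkc1, the pseudouridine synthase, by 2.57 ± 0.06. Of 15 chaperones and importers of ribosomal proteins, all 15 rose in wt and T1792tg/tg cells and 14 in the other genotypes, with a wt median of 1.29 and Ipo5, an import receptor, at 2.63 ± 0.06. Of 16 translation factors listed as without a TOP start, 15 rose in wt cells, among them Eif5a at 2.79 ± 0.07. The 20 other TOP mRNAs of translation were mixed, with 12 higher and 3 lower in wt cells and a median of 0.36. Within that list Nap1l1, a histone chaperone, was at 2.71 and Eef1a1, the main elongation factor, at -0.83. All those gene changes had edgeR adjusted p-values below 0.05, and 85.2% of all tested genes did in wt. Of 7 ribosomal proteins that the symbol rule leaves out, 2 rose and 4 fell in wt cells. Rpl7l1, a paralogue of Rpl7 that works in ribosome assembly, rose by 2.64 ± 0.07 and Fau fell by 0.63 ± 0.12. Of 20 genes of mTORC1 and TOP control, 8 rose and 6 fell.

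**Figure D4:**
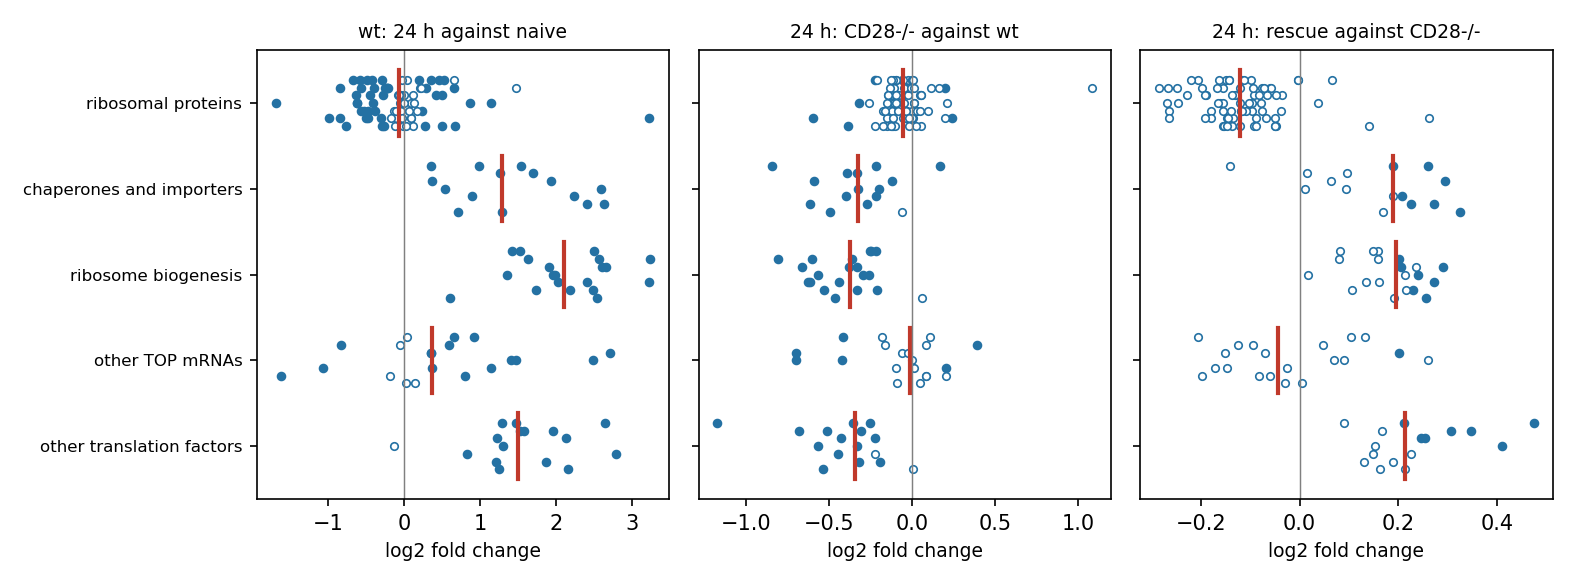
Log2 fold change of single genes (points) and list medians (red lines) for 5 lists in 3 comparisons. Filled points passed an adjusted p of 0.05. Ribosomal proteins centre on -0.07 in wt activation while biogenesis genes centre on 2.11, and in rescue against CD28-/- at 24 h ribosomal proteins centre on -0.12 and biogenesis genes on 0.20.

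The second question was whether the genotype changed these mRNAs in naive cells, and here 1 call was made in all 4 comparisons. In CD28-/- against wt 1 member was higher and 0 lower, against 14.8% of all tested genes called, 7.42% higher and 7.34% lower. That member, Rpl39l, read 0.196, 0.371, 0 and 0.610 CPM in wt and 1.99, 0.416, 1.78 and 0.615 CPM in CD28-/- libraries. The groups overlapped, and the log2 fold change of 2.06 ± 0.70 (edgeR adjusted p = 0.043) rests on few counts. The call was lost when any 1 of wt naive replicates 1 to 3 or CD28-/- naive replicates 1 and 3 was left out, with adjusted p-values of 0.072 to 0.14. The median of the members was 0.18 with 72 of 79 positive, and DESeq2 called 5. At an unadjusted p under 0.05 there were 24 members (30.4%), against 29.1% of all tested genes, a share near that background. Without CD28-/- naive replicate 1 and rescue naive replicate 2 the median was 0.09 and 0 were called. Leaving out single libraries gave between 0 and 13 calls, all higher: 13 without CD28-/- naive replicate 2, 11 without wt naive replicate 4, 8 without CD28-/- naive replicate 3, 3 without wt naive replicate 1, and 0 without wt naive replicate 2 or 3 or CD28-/- naive replicate 1.

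Against wt, naive T1792delta/delta cells had 0 of 79 members called by edgeR (5.19% of all tested genes called), with 5 at an unadjusted p under 0.05 (6.33%, against 19.4% of all tested genes) and 1 called by DESeq2, and a median of 0.13. The summed level of the 2 measured red cell markers of 4 listed was 393 to 1848 CPM (mean 962) in naive T1792delta/delta against 108 to 311 CPM in naive wt libraries, with Alas2 called higher (2.55 ± 0.66, edgeR adjusted p = 0.017). That of the myeloid markers was 246 to 331 against 167 to 221 CPM, with 4 of 10 called higher, and the part of these cells in the results was not tested. T1792tg/tg cells also had 0 (23.1% called), with 3 at an unadjusted p under 0.05 and 1 called by DESeq2, and a median of -0.02 that was 0.06 with library sizes set by total counts. Naive rescue against CD28-/- cells had 0 by edgeR and by DESeq2 (16.8% called), with 5 at an unadjusted p under 0.05 and a median of -0.04. Total counts turned that median to 0.02.

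The third question was whether genotypes differed after activation. At 24 h CD28-/- cells had 2 members higher and 4 lower than wt cells, against 51.5% of all tested genes called, 23.7% higher and 27.8% lower. Rps27l was lower, at 106 ± 10.1 CPM against 159 ± 3.88 CPM (log2 fold change -0.59 ± 0.13, edgeR adjusted p = 1.6e-04). Rps2 was lower at 422, 428, 430 and 487 CPM against 527 to 561 CPM (-0.32 ± 0.10, edgeR adjusted p = 0.0063), and Rpl28 and Rpl7a were lower by 0.38 and 0.22. Rpl3 was higher at 1150 ± 60.4 CPM against 1001 ± 55.4 CPM (0.20 ± 0.08, edgeR adjusted p = 0.025), and Rps15a was higher by 0.24. None of these 6 pairs of groups overlapped. The calls of Rps27l and Rps2 were kept under every alternative run, while each of the other 4 was lost in some, Rps15a with an adjusted p of 0.056 with RLE size factors and Rpl28 with 0.16 without CD28-/- 24h replicate 3. With library sizes set by total counts the split was 4 higher and 2 lower and the median turned from -0.05 to 0.02, and with RLE size factors the split was 1 higher and 4 lower. In a fit of the compared groups only, 16 were called, 8 in each direction. Leaving out wt 24h replicate 4 or CD28-/- 24h replicate 3 left 3 calls each.

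The lists around the ribosome did differ at 24 h: 19 of 20 biogenesis genes, 13 of 15 chaperones and importers and 14 of 16 translation factors listed as without a TOP start were lower in CD28-/- than in wt cells, with medians of -0.37, -0.33 and -0.34 beside -0.05 for the ribosomal proteins. Polr1c, a subunit of RNA polymerases I and III, was lower by 0.81 ± 0.07 and Tsr2, a chaperone of Rps26, by 0.84 ± 0.09. Cdkn1a, another p53 target gene, was lower by 1.97 ± 0.20 on the log2 scale, beside the lower Rps27l.

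In rescue against CD28-/- cells at 24 h, 0 of 79 members were called (18.4% of all tested genes called), with 3 at an unadjusted p under 0.05 and a median of -0.12. Values were negative for 75 of 79 members. Of the members, 16 (20.3%) did not overlap between the groups, all of them lower. Of all tested genes, 16.1% were lower without overlap and 35.5% did not overlap in either direction. In a fit of the compared groups only, 19 were called. Of the other lists 7 of 20 biogenesis genes, 7 of 15 chaperones and importers and 7 of 16 translation factors were higher in rescue cells, with 0 lower. Rps27l was at 111, 134 and 136 CPM in rescue against 95.2 to 118 CPM in CD28-/- libraries (0.26 ± 0.13, edgeR adjusted p = 0.19), and those groups overlapped.

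T1792delta/delta cells at 24 h had 0 members higher and 7 lower than wt (16.2% of all tested genes called, 7.77% higher and 8.47% lower): Rpl29, Rpl37, Rpl9, Rps12, Rps13, Rps27l and Rps9. The median was -0.20 with 77 of 79 negative, and 33 members (41.8%) were at an unadjusted p under 0.05, against 30.3% of all tested genes. Of the members, 44 (55.7%) did not overlap between the groups, all of them lower, while of all tested genes 13.8% were lower and 10.8% higher without overlap. The red cell markers summed to 3.71 to 31.1 CPM in these libraries against 1.81 to 2.57 CPM in wt, with 0 of 2 called, and 0 of 10 myeloid markers were called. Rps27l was at 124 ± 16.8 CPM against 159 ± 3.88 CPM (-0.37 ± 0.12, edgeR adjusted p = 0.039). Rps12 was at 306, 318, 344 and 381 CPM against 390 to 442 CPM (-0.28 ± 0.09, edgeR adjusted p = 0.023). The call of Rps27l was lost with total counts (adjusted p = 0.075) and when any single library of the 2 groups other than T1792delta/delta 24h replicate 4 was left out. That of Rps12 was lost with total counts (adjusted p = 0.057) and without wt 24h replicate 1 or 4 or T1792delta/delta 24h replicate 1 or 2. The count was 20 in a fit of the compared groups only, 2 with total counts, 13 without CD28-/- naive replicate 1 and rescue naive replicate 2, and between 1 (without wt 24h replicate 4, or without T1792delta/delta 24h replicate 1 or 2) and 12 (without T1792delta/delta 24h replicate 4).

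T1792tg/tg cells at 24 h had 0 members called against wt (12.5% of all tested genes called), with 4 at an unadjusted p under 0.05, 0 called by DESeq2 and a median of -0.14. Values were negative for 75 of 79 members, so the mostly negative values were not particular to T1792delta/delta cells. Of the 79, 34 (43.0%) did not overlap between the groups, all of them lower in T1792tg/tg, while of all tested genes 12.3% were lower without overlap and 22.8% did not overlap in either direction. A fit of the compared groups only called 20.

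Rpl29, a large subunit protein that also binds heparin, was unlike all other members in T1792delta/delta cells. Its libraries read 80.3, 1.56, 89.9 and 1.83 CPM in naive and 93.3, 2.17, 102 and 2.69 CPM in activated cells, in the order of replicates 1 to 4. Replicates 2 and 4 were near 2 CPM in both states, and replicates 1 and 3 were at 80.3 to 102 CPM. The wt libraries read 171, 132, 125 and 180 CPM naive and 241, 225, 236 and 252 CPM at 24 h, and all libraries of the other 3 genotypes were at 131 CPM or more. All 8 T1792delta/delta libraries were thus below all others. Against wt at 24 h the log2 fold change was -2.26 ± 0.71 (edgeR adjusted p = 0.027), in naive cells -1.81 ± 0.71 (edgeR adjusted p = 0.14). Without T1792delta/delta 24h replicate 2 or 4, the low ones, the 24 h value was -1.86 with adjusted p-values of 0.073 and 0.063, and in a fit of the compared groups only the adjusted p was 0.10. Rpl29 was called in none of the 5 responses, where its log2 fold change was between 0.08 and 0.65. The fit takes 1 spread per gene from all groups, so the split T1792delta/delta libraries widen the SE in every comparison. In wt cells all activated libraries were above all naive ones, so the missing call does not show that Rpl29 was unchanged there.

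The gene lies at chr9:106428889-106431568 of GRCm38. Of the genes around it, Dusp7 at chr9:106368560-106375724, a phosphatase gene chosen after its values were seen, read 36.4, 27.0, 39.3 and 23.3 CPM in the same order in naive T1792delta/delta libraries and 35.0, 22.4, 41.2 and 26.1 CPM at 24 h, against 37.8 to 53.3 CPM in naive and 42.9 to 47.3 CPM in activated wt libraries. Replicates 2 and 4 were again the lower ones. Poc1a, on the same side as Dusp7, did not show that order. It read 3.47, 2.79, 3.22 and 4.01 CPM in naive and 23.2, 22.8, 27.9 and 26.4 CPM in activated T1792delta/delta libraries. Of the genes on the other side, Acy1 did not show that order. It read 11.0, 12.8, 11.3 and 10.6 CPM in naive and 41.1, 47.9, 46.4 and 49.1 CPM in activated T1792delta/delta libraries. In each state these lay above the wt libraries, at 7.88 to 10.4 and 32.3 to 35.3 CPM. Abhd14a did show it, at 3.66, 1.88, 3.69 and 2.54 CPM in naive and 24.1, 21.0, 25.7 and 19.4 CPM in activated T1792delta/delta libraries. The wt libraries read 5.34 to 6.36 and 29.5 to 33.6 CPM. By start, Dusp7, Poc1a, Acy1 and Abhd14a are the nearest genes of the count table on either side of Rpl29. Poc1a, Acy1 and Abhd14a were likewise chosen after their values were seen.

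**Figure D5:**
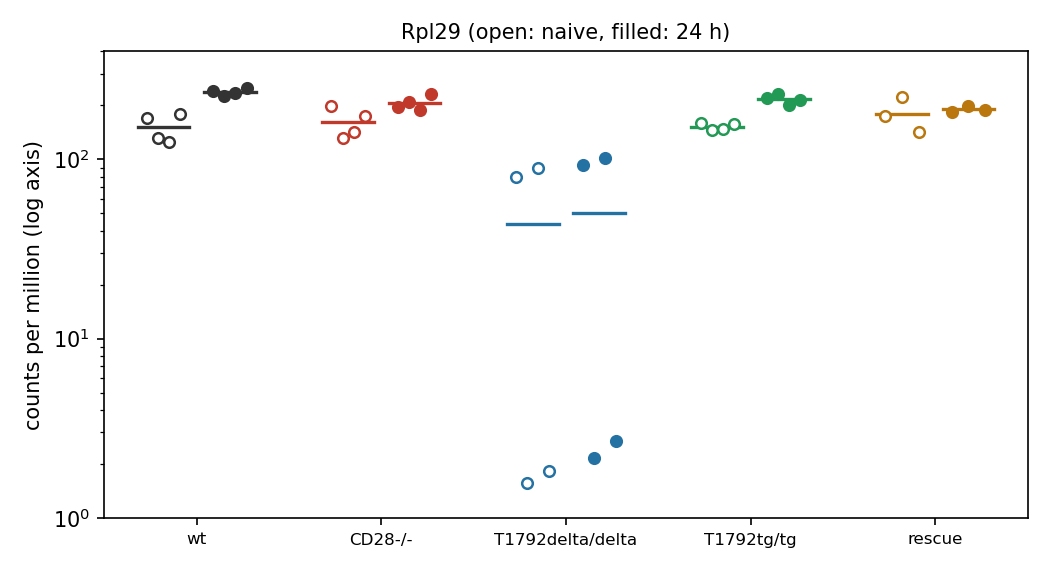
Rpl29 in CPM on a log axis, by genotype. Each point is 1 library in the order of its replicate number from left to right, open for naive and filled for 24 h, with short lines at the group means. T1792delta/delta replicates 2 and 4 lie between 1.56 and 2.69 CPM in both states, and its replicates 1 and 3 between 80.3 and 102 CPM.

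The last question was whether the response to activation itself differed between genotypes. The CD28-/- response was lower than that of wt for 7 members and higher for 0, against 43.3% of all tested genes called, 20.8% higher and 22.4% lower: Rps27l (-0.96 ± 0.19, edgeR adjusted p = 8.3e-05), Rpl22 (-0.47 ± 0.15, edgeR adjusted p = 0.011), Rpl31, Rpl27, Rpl39, Rps24 and Rps12. Rpl22 went from 608, 486, 441 and 585 CPM to 647, 628, 622 and 661 CPM in wt and from 731, 514, 546 and 723 CPM to 496, 547, 540 and 609 CPM in CD28-/- cells. The wt libraries moved up without overlap, and the CD28-/- libraries overlapped. The count was 3 with total counts (1 higher and 2 lower), 4 without CD28-/- naive replicate 1 and rescue naive replicate 2 (1 higher and 3 lower), and 2 to 20 when 1 library was left out, all lower except 1 of the 3 called without CD28-/- naive replicate 1 (20 without CD28-/- naive replicate 2, and 2 without wt naive replicate 3, wt 24h replicate 4 or CD28-/- naive replicate 4). The call of Rps27l was kept in each of these fits, while those of Rpl31, Rpl27, Rpl39 and Rps24 were lost with total counts (adjusted p from 0.075 to 0.098) and without the 2 libraries of highest share (0.066 to 0.10).

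The T1792delta/delta response was lower than that of wt for 2 members, Rps12 (-0.42 ± 0.12, edgeR adjusted p = 0.033) and Rps13 (-0.41 ± 0.13, edgeR adjusted p = 0.045), against 6.1% of all tested genes called, 3.15% higher and 2.95% lower. All 79 members had a negative value, with a median of -0.34 beside 0.00 for all tested genes, and 44 (55.7%) were at an unadjusted p under 0.05, against 22.4% of all tested genes. Values were also negative for 73 of 79 members in the CD28-/- response and 70 of 79 in the T1792tg/tg response against wt. Naive T1792delta/delta cells were above wt for 77 of 79 members (median 0.13), which enters this difference. The members moved together between libraries, so their number is not a number of independent results. With the replicate number as a block within genotype the count was 4. It was 8 in a fit of the compared groups only and 8 without CD28-/- naive replicate 1 and rescue naive replicate 2, 1 with no filter on low counts, and 0 to 7 when 1 library was left out, with 0 without wt naive replicate 3, wt 24h replicate 1 or 4, or T1792delta/delta 24h replicate 1 or 2.

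For the T1792tg/tg response against wt 0 members were called (16% of all tested genes called), with 3 at an unadjusted p under 0.05, 0 called by DESeq2 and a median of -0.12. Total counts gave 3 calls. For rescue against CD28-/- 0 were called by edgeR and by DESeq2 (12.8% called), with 0 at an unadjusted p under 0.05 and a median of -0.08. In the same comparison 12 of 20 biogenesis genes rose more in rescue cells and 0 rose less.

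Outside the members, the 8 genes at 50 CPM or more whose group means were most correlated with the members' mean log2 level over the 10 groups were Gm15772, Nsa2, Mir682, Rack1, Fam32a, Mbd2, Actr3 and Arl6ip5, with Pearson's r from 0.94 to 0.96. The groups share the activation state and the genotypes, so this is a description with no test. Rack1 is itself a protein of the small subunit, and it was at 2983 CPM in naive and 2714 CPM in activated wt cells. Nsa2, a factor of large subunit assembly, went from 140 to 114 CPM.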

How the data were processed

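The authors deposited whole-number read counts per gene, 1 column a library, with genes named by Entrez number. RNA was polyA-selected and made into stranded TruSeq libraries read as single ends of 76 bases, per the labels' protocols. FastQC 0.11.5, STAR 2.5.2a, R 3.5, edgeR 3.24.3 and the build mm10 are named in the submitters' processing notes. The sources used here name neither the counting tool nor its treatment of reads with several places. RefSeq names matched 23968 of 24028 genes, and the others held 0.0749% of counts.

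All 38 libraries entered 1 fit by group in edgeR 4.0.16 (R 4.3.3; TMM scaling, filterByExpr, quasi-likelihood F test), with Benjamini-Hochberg adjustment over 13650 tested genes in each of 17 comparisons and a call at an adjusted p below 0.05. The fit was tested on simulated data. The SE of a log2 fold change was taken as its absolute value over the root of its F statistic. Alternatives were DESeq2 1.42.0, other scalings, no filter, the replicate number or the sex as a term, a fit of the compared groups only, and single libraries left out. The members and lists were chosen with earlier results of these data known. Genes named in the text are the 5 largest changes in each direction among called members, members fixed by role, the highest and lowest per length, and the 3 smallest p-values of a list, unless stated. Nothing says that libraries of 1 number came from 1 mouse. Same-numbered naive and 24 h libraries deviated together in wt (r from 0.14 to 0.41) and T1792delta/delta (0.21 to 0.37). They did not in all pairs of the other genotypes, nor in all pairs across genotypes. P-values measure the spread between mice as labelled. TOP starts and motifs were searched in RefSeq promoters of GRCm38.p6, and shared windows in GENCODE M21 transcripts.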

Additional observations from a re-analysis of the deposited data

Results flagged for a closer look

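Of 104 groups of 4 libraries looked at (12 members and the summed share, in the 8 groups of that size), 9 held a library far from the other 3, and chance alone gives about 1 in 20. These were Rps27l in T1792tg/tg 24h replicate 1 at 173 CPM (others 155 to 157), Rps2 in wt 24h replicate 1 at 527 CPM (others 558 to 561), in CD28-/- naive replicate 1 at 299 CPM (others 221 to 225) and in CD28-/- 24h replicate 4 at 487 CPM (others 422 to 430). Rps15a in T1792tg/tg naive replicate 3 read 1277 CPM (others 1034 to 1052) and Rps7 in T1792delta/delta 24h replicate 1 read 232 CPM (others 267 to 271). Rpl22 in that same T1792delta/delta library read 481 CPM (others 567 to 580) and in T1792tg/tg naive replicate 3 643 CPM (others 542 to 551). Rpl28 in wt naive replicate 4 read 3.20 CPM (others 2.35 to 2.47).

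The response to activation differed from that of wt, by a test of the difference itself, for 7 members in CD28-/- cells: Rps27l by -0.96, Rpl22 by -0.47, Rpl31 by -0.43, Rpl27 by -0.39, Rps24 by -0.39, Rpl39 by -0.38 and Rps12 by -0.33 on the log2 scale. In T1792delta/delta cells it differed for Rps12 by -0.42 and Rps13 by -0.41.

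Rps4l, the transcribed pseudogene outside the members, was read at a mean of 1.84 CPM over all libraries, from 0.256 to 7.67. In T1792delta/delta cells it was at 2.30 to 3.85 CPM naive and 3.27 to 7.67 CPM at 24 h. The wt libraries read 0.577 to 1.25 and 1.40 to 2.18 CPM, without overlap in either state. Its mean was higher at 24 h than in naive cells in each genotype. These are low levels, given as a description.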

How the results depend on the processing

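Of 117 calls of named members 0 changed sign under the alternatives run, 90 were kept under every alternative and 27 were lost in at least 1, and of the 97 among them that were responses to activation 86 were kept. The counts of members called in the 5 responses stayed within 1.5 times of the reported ones. When single libraries were left out they were 41 to 44 in wt, 41 to 58 in CD28-/-, 56 to 60 in T1792delta/delta, 42 to 44 in T1792tg/tg and 40 to 61 in rescue cells. The median of the CD28-/- response moved from -0.28 to -0.15 with total counts. Medians near 0 turned sign in some alternatives. With total counts that of naive T1792tg/tg cells went from -0.02 to 0.06, that of naive rescue against CD28-/- from -0.04 to 0.02 and that of CD28-/- at 24 h from -0.05 to 0.02. With single libraries left out, the highest medians were 0.06 and 0.08 in those naive comparisons, 0.00 for the wt response and 0.06 for the rescue response against that of CD28-/-, reached from -0.02, -0.04, -0.07 and -0.08.

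The smaller counts moved more, and the cause was not tested. In naive cells the count for CD28-/- against wt (1) was 2 with the replicate block, 5 with DESeq2, 0 without the 2 libraries of highest share, 0 in a fit of the compared groups only and 0 to 13 when single libraries were left out. That for T1792delta/delta (0) was 1 with DESeq2 and 0 to 1 without single libraries. That for T1792tg/tg (0) was 2 with total counts, 1 with DESeq2 and 0 to 3 without single libraries. That for rescue against CD28-/- (0) was 1 with total counts and 0 to 1 without single libraries. At 24 h the count for CD28-/- (6) was 16 in a fit of the compared groups only and 3 to 6 without single libraries. That for T1792delta/delta (7) was 2 with total counts, 13 without the 2 libraries of highest share, 20 in a fit of the compared groups only and 1 to 12 without single libraries. That for T1792tg/tg (0) was 20 in a fit of the compared groups only, and that for rescue against CD28-/- (0) was 19 in such a fit and 1 without the 2 libraries of highest share.

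The count of members whose response differed between CD28-/- and wt (7) was 3 with total counts, 4 without the 2 libraries of highest share and 2 to 20 without single libraries. For T1792delta/delta (2) it was 1 with no filter, 4 with the replicate block within genotype, 4 with DESeq2, 8 without the 2 libraries of highest share, 8 in a fit of the compared groups only and 0 to 7 without single libraries. A term for sex, added after seeing the data, gave 3 here and 5 for T1792delta/delta at 24 h. For T1792tg/tg (0) it was 3 with total counts and 0 to 1 without single libraries.

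With the replicate block within genotype, 49, 52, 64, 46 and 58 members were called in the responses of wt, CD28-/-, T1792delta/delta, T1792tg/tg and rescue, against 46, 51, 60, 44 and 55 without it. Across genotypes, same-numbered libraries had r from -0.41 to 0.26. All were positive only for T1792tg/tg against wt, at 0.04 to 0.22 in naive cells and 0.01 to 0.19 at 24 h. Libraries of unlike numbers were not set beside these. Members with few counts, Rpl39l and Rpl28 above all, and those whose reads fit other genes as well, Rps27 above all, have the least certain levels.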

Other observations

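Several members have a close relative in the table, and the balance of the pairs was read per length. Lengths were the summed widths of all exons, which set the absolute value but not the direction of a change. Rpl7l1 went from 1.41 ± 0.14 to 8.81 ± 0.26 per 100 Rpl7 mRNAs in wt cells (SD, n = 4), and from 1.22 ± 0.16 to 5.42 ± 0.32 in CD28-/- cells. Rpl36al went from 58.1 ± 2.05 to 78.2 ± 5.85 per 100 Rpl36a mRNAs in wt cells, and Rpl36a was shared in 84.6% of windows. Rpl22l1 moved the other way, from 205 ± 18.8 to 143 ± 9.96 per 100 Rpl22 mRNAs in wt cells. Its mean per Rpl22 was lower at 24 h in each genotype. Rpl32l was at 3.23 ± 0.24 and 3.08 ± 0.06 per 100 Rpl32 mRNAs in naive and activated wt cells. It had no transcript in the GENCODE set used here, so its shared windows are not known. These ratios were not tested.

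Rpl5 and Rpl11 belong to the 5S particle that inhibits Mdm2, and of the 6 genes listed with that particle and the p53 checkpoint 2 rose and 3 fell in wt activation (85.2% of all tested genes called). Trp53 rose by 0.81 ± 0.05 on the log2 scale and Cdkn1a, its target gene and a cell cycle inhibitor, by 2.91 ± 0.21, while Mdm4, an inhibitor of p53, fell by 1.42 ± 0.11 (edgeR adjusted p-values of 1.6e-17, 5.6e-15 and 4.5e-14). In activated CD28-/- against wt cells Cdkn1a and Mdm2 were lower (-1.97 ± 0.20 and -0.49 ± 0.07) and Mdm4 was higher (0.35 ± 0.11), while Trp53 was at 0.03, Rpl5 at 0.03 and Rpl11 at -0.05, which did not pass the test. In rescue against CD28-/- cells Cdkn1a was higher by 0.67 ± 0.21 (edgeR adjusted p = 0.023), beside the value of 0.26 ± 0.13 for Rps27l, which did not pass.

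The mRNAs of mitochondrial ribosomal proteins took a higher share of counts after activation. Their group means were between 0.21 and 0.24% in naive cells and between 0.53 and 0.68% at 24 h. The highest of the 24 h means was that of wt (0.68 ± 0.0075%) and the lowest that of CD28-/- (0.53 ± 0.019%). The mean cytosolic share was lower at 24 h than in naive cells in each genotype. Its naive and 24 h libraries overlapped in wt cells (5.34 to 6.99% and 5.81 to 6.15%). They also overlapped in CD28-/- cells (5.88 to 8.53% and 5.68 to 6.60%), so an opposite movement is not shown in these genotypes.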
